A study of Homo sapiens with 6 samples.

Results

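Transcripts of 10 cell cycle genes were followed in HCCC9810 cells, an established human cholangiocarcinoma (CCA) cell line, treated with isolinderalactone (ILL), a plant sesquiterpenoid lactone. The genes are the D-type cyclins CCND1, CCND2 and CCND3, the E-type cyclins CCNE1 and CCNE2, the A-type cyclin CCNA2, the B-type cyclins CCNB1 and CCNB2, and the kinases CDK2 and CDK4. They were selected by gene symbol, and all 10 were found among the 19470 genes of the deposited count table. The ILL group received 20 μM ILL for 24 h and the control group received vehicle (DMSO) for the same time. Each group held 3 libraries of wild type cells. The labels do not say whether the libraries came from separate cultures, so p-values measure the spread between these libraries, which may be technical.

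Cyclins are the regulatory partners that switch on cyclin-dependent kinases (CDKs). D-type cyclins respond to growth signals and pair with CDK4 and CDK6 in G1, where they begin the phosphorylation of the retinoblastoma protein RB. E-type cyclins then pair with CDK2 at entry into S phase, cyclin A2 acts with CDK2 and CDK1 in S and G2, and B-type cyclins act with CDK1 in mitosis. Transcripts of the E-, A- and B-type cyclins rise and fall with the cycle, through E2F factors and the DREAM and MuvB complexes, whereas D-type cyclin transcripts depend more on signals from outside the cell.

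Total counts ranged from 34282764 to 37758569 per library. Of 8 markers of biliary epithelium, 7 had a mean of at least 1 CPM, the count scaled to the library's effective size. The summed level of the 6 leukocyte markers was 37.8 to 42.3 CPM in controls and 113 to 119 CPM with ILL, nearly all of it CD68, a lysosomal protein, while PTPRC, which encodes CD45, had at most 9 counts in any library. The part of this difference in the results below was not tested. The sums were 31.9 to 35.2 CPM in controls and 30.7 to 51.6 CPM with ILL for 5 hepatocyte markers, 12.1 to 14.2 and 16.8 to 18.4 CPM for 6 fibroblast markers, and 1.0 to 1.65 and 1.69 to 1.91 CPM for 3 endothelial markers.

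Every one of the 10 transcripts passed the filter on low counts and changed with ILL at an adjusted p-value under 0.05 (edgeR's quasi-likelihood test). CCNA2, CCNB1, CCNB2, CCNE1 and CCNE2 fell to between 10.2% and 16.0% of the control level, CDK2 fell to 26.1% and CDK4 to 34.8%. The D-type cyclins CCND1 and CCND3 fell less, to 68.1% and 71.5%, and CCND2, which was scarce in these cells, rose 2.30-fold. Thus 9 members were lower and 1 was higher, against a background of 36.9% of the 13066 tested genes lower and 36.2% higher at the same threshold. With a fold change of more than 2 or less than 0.5 also required, the definition of a differentially expressed gene (DEG) in the study, 7 members were DEGs lower with ILL and 1 was a DEG higher with ILL, against 11.4% and 12.5% of the tested genes. The median log2 fold change was -2.29 over the 10 members and -0.0012 over all tested genes. In all 10 genes the control and ILL libraries did not overlap on the CPM scale, as was the case for 38.0% of tested genes with lower and 37.5% with higher values under ILL. In bulk RNA, fewer cells in a given phase and less transcript per cell cannot be told apart.

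**Figure D1:**
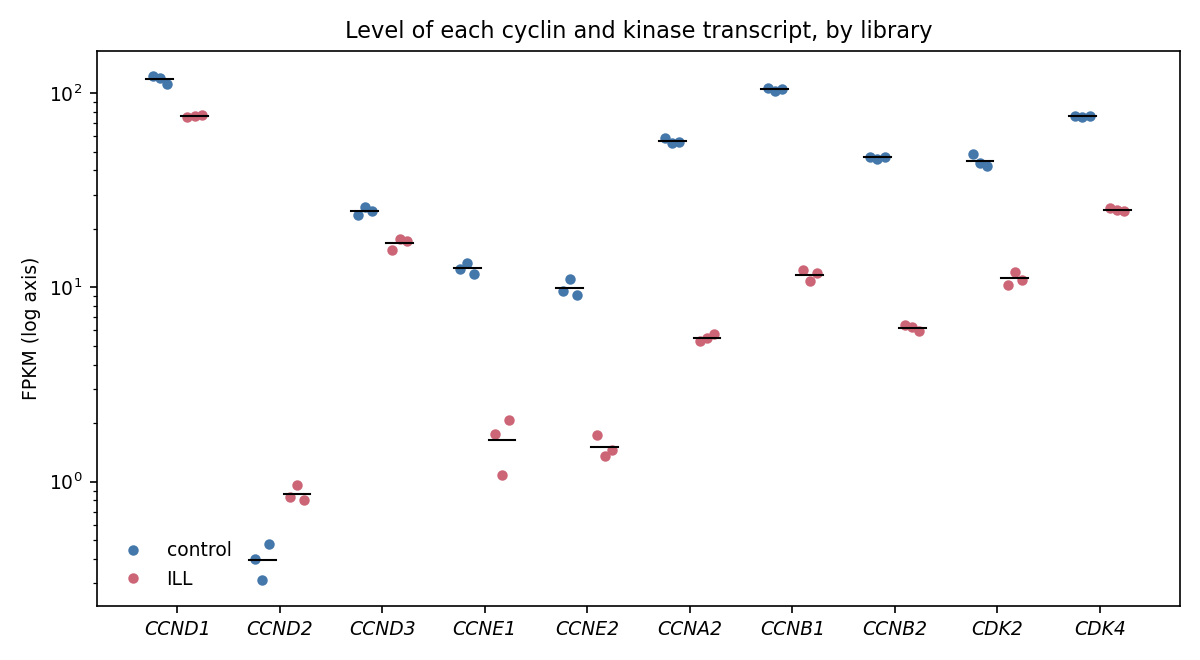
FPKM (counts scaled by gene length and library total) of each transcript in every library on a log axis, with 3 control and 3 ILL points per gene and a bar at each group mean. The CCNA2, CCNB1, CCNB2, CCNE1 and CCNE2 points dropped by far more than those of CCND1 and CCND3, and CCND2 alone moved upward.

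Promoter sequences of the members are shown first, since cyclin genes of S and G2 phase are known for elements there. RefSeq promoters on GRCh38.p14, from 250 bases before to 50 bases after a start site, were at hand for 6 of the 10 members (CCND3, CCNE1, CCNA2, CCNB1, CCNB2 and CDK4), with 3 start sites for CCND3. Several kinds of element were searched on both strands, and positions count from the start site. The cell cycle homology region (CHR), to which MuvB complexes bind, was searched as TTTGAA or CTTGAA and was held by 23.9% of 35116 promoters. CCAAT boxes, bound by NF-Y, were held by 34.6%, with at least 2 in 10.8% and at least 3 in 3.26%. The cAMP response element (CRE), TGACGTCA, was held by 1.85%, and the E-box CACGTG, bound by MYC among others, by 7.26%.

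CCNB2 had a CHR at -29 and CCAAT boxes at -120, -87 and -54, spaced by 33 bases, besides a further box at -244. CCNA2 had a CHR at -28, a reversed CCAAT box at -56 and a CRE at -81, directly after another CHR match at -87. CCNB1 had CCAAT boxes at -87 and -55 and an E-box at -196, and 0 CHR matches. CDK4 had E-boxes at -216, -196 and -101, and at least 3 E-boxes were found in 0.094% of promoters. This cutoff equals the count in CDK4, and the rarity was not tested. In the windows below, capitals mark the element, and each is read 5′ to 3′ on the strand of its gene.
CCNB2, CHR (chr15:59105105-59105134, plus strand): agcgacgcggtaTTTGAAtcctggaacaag
CCNA2, CHR (chr4:121823894-121823923, minus strand): agtcgcgggataCTTGAActgcaagaacag
CCNA2, CRE (chr4:121823946-121823975, minus strand): gtcgccttgaaTGACGTCAaggccgcgagc
CCNB2, first of the evenly spaced CCAAT boxes (chr15:59105014-59105043, plus strand): aagaaaattcagCCAATgagagtgcgagag
CCNB2, next CCAAT box (chr15:59105047-59105076, plus strand): atcttgtgttggCCAATgagaacagcgacc
CCNB2, last CCAAT box (chr15:59105080-59105109, plus strand): gcgcagggccgcCCAATggggcgcaagcga
CCNB1, upstream CCAAT box (chr5:69167051-69167080, plus strand): gaccggcagccgCCAATgggaagggagtga
CCNB1, downstream CCAAT box (chr5:69167083-69167112, plus strand): gccacgaacaggCCAATaaggagggagcag
CDK4, E-box nearest the start site (chr12:57752394-57752423, minus strand): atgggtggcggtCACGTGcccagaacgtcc

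None of the promoters of these 6 members held the E2F letters TTTCGCGC, TTTGGCGC, TTTCCCGC or TTTGCCGC, which 3.31% of all promoters held, and the CCNE1 window held none of the elements searched. CCND3 held a CCAAT box in the windows of 2 of its 3 start sites and none of the other elements. A match is a run of letters and not a measured binding site. Only the exact letters were searched, so a site with any differing base would be missed.

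CCND1 encodes cyclin D1, the main D-type cyclin of many epithelial tumors, on chromosome 11 (GRCh38, 69641087 to 69654474, plus strand). It was counted 19622, 17371 and 16424 times in the control libraries and 11421, 11517 and 11758 times with ILL. All ILL libraries lay below all controls, and the ILL values were close together. The mean fell in CPM from 488 ± 21.2 to 332 ± 5.38 (SD, n = 3). The log2 fold change was -0.55 (standard error, SE, 0.05, edgeR adjusted p = 3.1e-10), which did not reach the fold change cutoff of a DEG.

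CCND3, on chromosome 6 (41934933 to 42050357, minus strand), encodes cyclin D3 and changed by a similar amount. Its counts were 2592, 2589 and 2515 in controls and 1613, 1839 and 1806 with ILL. The groups did not overlap, and the log2 fold change was -0.48 (SE 0.07, edgeR adjusted p = 6.1e-07), again short of the DEG cutoff.

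CCND2, on chromosome 12 (4273772 to 4305350, plus strand), encodes cyclin D2 and was the one member that rose. It had 98, 69 and 107 counts in controls and 192, 222 and 188 with ILL, so that every ILL library was above every control. The log2 fold change was 1.20 (SE 0.21, edgeR adjusted p = 1.9e-05). Its level stayed low in both groups, at 0.395 ± 0.0825 FPKM (SD, n = 3) in controls and 0.867 ± 0.0843 FPKM (SD, n = 3) with ILL. Among the D-type cyclins CCND1 made up 82.4% ± 1.13 of the summed FPKM in controls and 81.2% ± 0.948 with ILL (SD, n = 3), CCND3 17.3% ± 1.11 and 17.9% ± 0.905, and CCND2 0.277% ± 0.0671 and 0.920% ± 0.0838. The CCND2 share was higher in 3 of 3 ILL libraries than in any control (two-sided exact permutation test, p = 0.10, the smallest that 3 against 3 libraries allow, and adjusted p = 0.20 over 6 shares). The CCND1 and CCND3 shares overlapped between groups (exact permutation p = 0.30 and 0.60).

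The kinases that act in G1 fell more than the D-type cyclins. CDK4, a partner of the D-type cyclins, lies on chromosome 12 (57747727 to 57756013, minus strand). It was counted 5369, 4829 and 4922 times in controls and 1705, 1658 and 1660 times with ILL. The replicates were tight, at 138 ± 0.874 CPM and 48.1 ± 0.616 CPM (SD, n = 3), and the log2 fold change was -1.52 (SE 0.06, edgeR adjusted p = 8.7e-18). The summed FPKM of the D-type cyclins was 1.88 ± 0.0721 times that of CDK4 in controls and 3.75 ± 0.140 times with ILL (SD, n = 3). This ratio leaves out CDK6, their other partner, which stood at 21.7 FPKM in controls and 11.5 FPKM with ILL.

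CDK2, the partner of cyclins E and A, lies on chromosome 12 (55966769 to 55972784, plus strand) and was counted 4365, 3589 and 3475 times in controls and 879, 1020 and 937 times with ILL. The groups were far apart, with a log2 fold change of -1.94 (SE 0.07, edgeR adjusted p = 1.1e-17). Of the summed FPKM of CDK2 and CDK4, CDK2 made up 37.1% ± 1.67 in controls and 30.6% ± 1.88 with ILL (SD, n = 3), lower in 3 of 3 ILL libraries than in any control (exact permutation p = 0.10, the smallest possible, and adjusted p = 0.20).

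The E-type cyclins drive CDK2 at the start of S phase. CCNE1, on chromosome 19 (29811898 to 29824308, plus strand), was counted 919, 896 and 797 times in controls and 123, 75 and 146 times with ILL. ILL replicate 2 was the lowest, and all ILL libraries were below all controls, with a log2 fold change of -2.86 (SE 0.15, edgeR adjusted p = 1.7e-14). CCNE2, encoding cyclin E2, had 1387, 1451 and 1218 counts in controls and 237, 184 and 199 with ILL, without overlap. Its log2 fold change was -2.64 (SE 0.11, edgeR adjusted p = 6.2e-17).

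CCNE1 made up 55.8% ± 0.928 of the summed E-type FPKM in controls and 51.2% ± 7.32 with ILL (SD, n = 3), and the ranges overlapped (exact permutation p = 0.40). With ILL the shares ranged between 44.4% in replicate 2 and 58.9% in replicate 3. The difference in means, -4.54 percentage points, shrank to -1.11 when ILL replicate 2 was left out and grew to -8.40 when ILL replicate 3 was left out. The E-type cyclins together stood at 0.503 ± 0.0510 of the CDK2 FPKM in controls and at 0.288 ± 0.0746 with ILL (SD, n = 3).

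CCNA2, encoding the S and G2 phase cyclin A2, showed the largest decrease of the 10 members. The gene lies on chromosome 4 (121816444 to 121823933, minus strand) and was counted 6074, 5219 and 5363 times in controls and 517, 538 and 565 times with ILL. The level fell 9.81-fold, in CPM from 152 ± 3.97 to 15.5 ± 0.702 (SD, n = 3), with a log2 fold change of -3.29 (SE 0.07, edgeR adjusted p = 9.4e-23). Of the tested genes, 50 had a lower log2 fold change, or 0.383%. Relative to CDK2, CCNA2 stood at 1.27 ± 0.0662 of its FPKM in controls and at 0.497 ± 0.0347 with ILL (SD, n = 3).

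The mitotic cyclins fell nearly as far. CCNB1, on chromosome 5 (69167010 to 69178245, plus strand), was counted 8184, 7152 and 7381 times in controls and 889, 773 and 858 times with ILL, a log2 fold change of -3.11 (SE 0.06, edgeR adjusted p = 1.2e-22). CCNB2, on chromosome 15 (59105078 to 59125045, plus strand), had 2652, 2341 and 2420 counts in controls and 340, 329 and 318 with ILL, a log2 fold change of -2.84 (SE 0.08, edgeR adjusted p = 1.7e-20). In both genes the lowest control was above every ILL library by several-fold.

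CCNB1 made up 69.2% ± 0.135 of the B-type FPKM in controls and 65.1% ± 1.65 with ILL (SD, n = 3), with every ILL library below every control (exact permutation p = 0.10, the smallest possible, and adjusted p = 0.20). CDK1, the kinase of the B-type cyclins, had 16406, 14642 and 12786 counts in controls and 1664, 1457 and 1822 with ILL, a log2 fold change of -3.08 (SE 0.07, edgeR adjusted p = 1.9e-21). The summed B-type FPKM was 1.27 ± 0.119 times that of CDK1 in controls and 1.32 ± 0.115 times with ILL (SD, n = 3), with overlapping ranges.

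**Figure D2:**
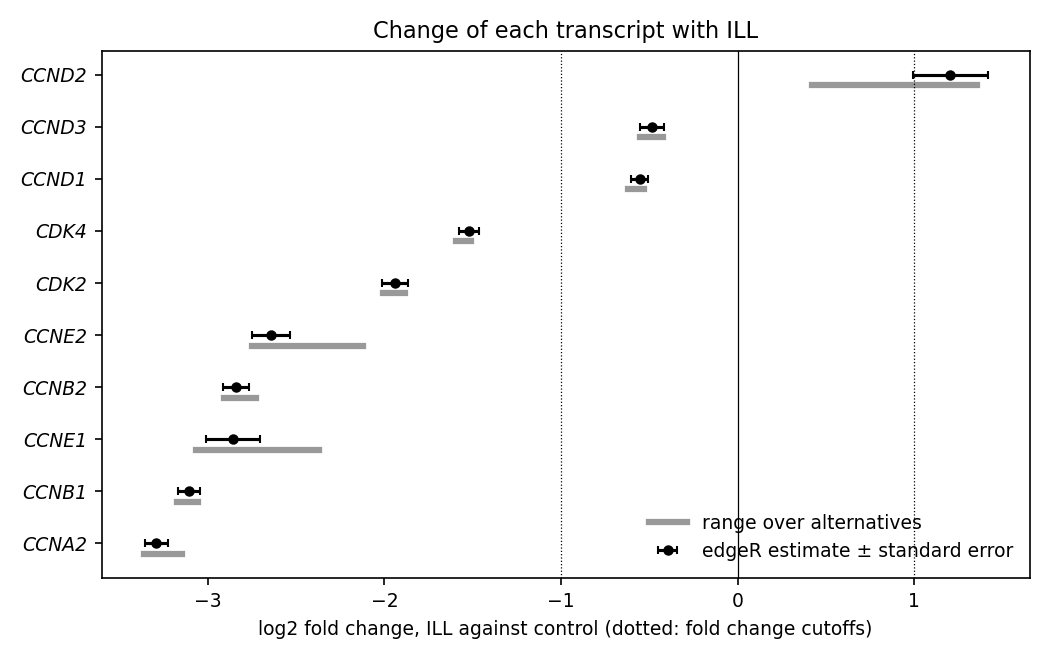
Log2 fold change of each transcript between ILL and control libraries, ordered by size. Points show edgeR's estimate and bars a standard error derived from its test. Grey lines show the range over the alternative analyses, and dotted lines the fold change cutoffs. CCNA2 is lowest at -3.29, CCND1 and CCND3 lie between the cutoffs, and the CCND2 range reaches down to 0.42, the difference on the log2 scale of FPKM plus 1.

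Levels of different genes can be set side by side on the FPKM scale, which divides by gene length. In controls CCND1 led with 118 ± 5.66 FPKM (SD, n = 3), followed by CCNB1 at 105, CDK4 at 75.9, CCNA2 at 56.7, CCNB2 at 46.7, CDK2 at 44.8, CCND3 at 24.8, CCNE1 at 12.5, CCNE2 at 9.96 and CCND2 at 0.395. CCNB2 and CDK2 overlapped between libraries, and the other neighbours in this order did not. With ILL, CCND1 led again at 76.5 ± 0.922 FPKM (SD, n = 3), CDK4 at 25.2 and CCND3 at 16.9 came next, and CCNB1 at 11.6 and CDK2 at 11.1 overlapped. CCNB2 at 6.20 and CCNA2 at 5.51 followed, then CCNE1 at 1.64 and CCNE2 at 1.52, which overlapped, and CCND2 at 0.867.

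The summed level of the 8 cyclins was 374 ± 7.70 FPKM in controls and 121 ± 1.63 FPKM with ILL (SD, n = 3). D-type cyclins held 38.3% ± 0.762 of this sum in controls and 78.1% ± 1.15 with ILL, while the B-type to D-type ratio moved from 1.06 ± 0.0441 to 0.189 ± 0.0130 (SD, n = 3). FPKM values are scaled by the total count of each library without the correction for composition used in the fold changes.

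**Figure D3:**
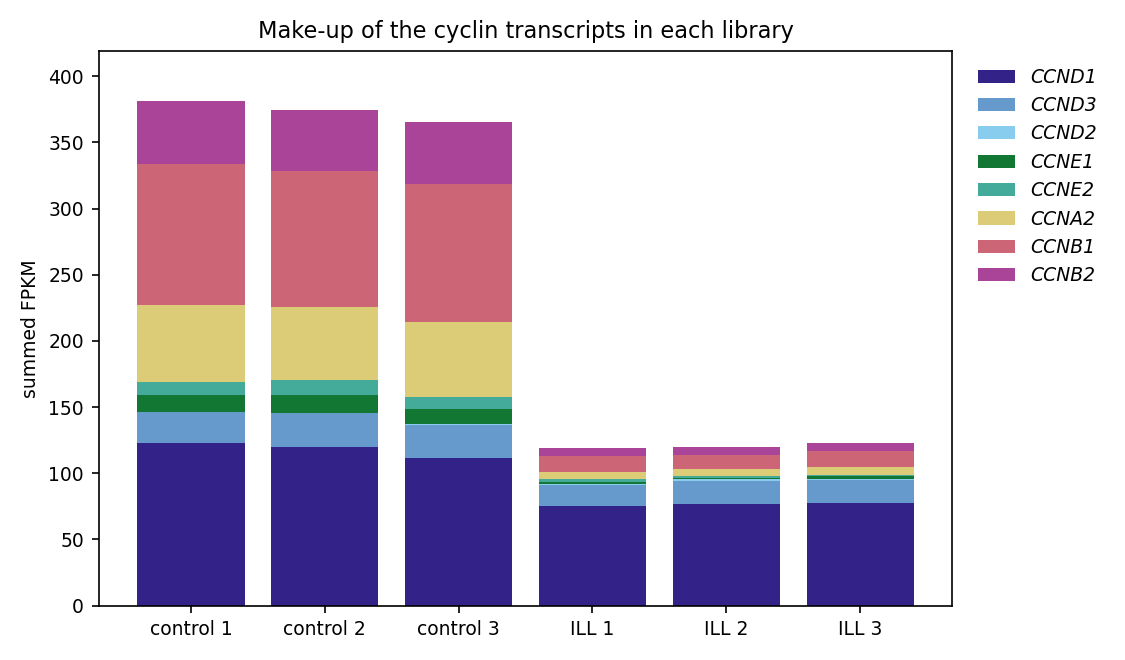
Stacked FPKM of the 8 cyclin transcripts in each library, in linear units from 0. The sum is 374 FPKM on average in controls and 121 FPKM with ILL, and the blue D-type part takes 38.3% of the control bars and 78.1% of the ILL bars.

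Several members overlap genes on the opposite strand, and the strand setting of the counting is not given in the sources used here, so reads in the shared exons cannot be told apart. The clearest contrast was at CDK4, whose exons share 1369 bases with those of TSPAN31 in GENCODE release 29. TSPAN31, a tetraspanin gene, was counted 474, 353 and 425 times in controls and 1037, 1130 and 1101 times with ILL, a log2 fold change of 1.45 (SE 0.10, edgeR adjusted p = 9.3e-13), opposite to that of CDK4. CCNA2 shares 254 exonic bases with EXOSC9, an exosome subunit that fell by 1.41 on the log2 scale, and CCND1 shares 497 with LTO1, which fell by 0.45. CCNE2 shares 1629 with INTS8, an Integrator subunit that fell by 0.43, and CDK2 shares 89 with PMEL, which fell by 0.81. NDUFAF6, which fell by 0.68, overlaps the CCNE2 gene but shares 0 exonic bases with it. These 6 genes passed edgeR's test at an adjusted p-value under 0.05, as did 36.9% of all tested genes with lower and 36.2% with higher values. The 6 were chosen by position after their values were seen.

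For the members other than CCND2, the closest gene outside the 10 was sought among 12029 genes. Distance was the root mean square difference in log2 CPM over the 6 libraries, each gene taken relative to its own control mean. ASPM, a spindle pole protein, lay closest to CCNA2 (distance 0.0478), ANLN, a cytokinesis protein, closest to CCNB1 (0.0554), and UHRF1, a DNA methylation maintenance factor, closest to CCNB2 (0.0302). VRK1, a chromatin kinase, was closest to CCNE2 (0.0320) and CENPJ, a centriole protein, closest to CDK2 (0.0602). BNC2 was closest to CCNE1 (0.0316), MYO19 to CDK4 (0.0263), MED22 to CCND1 (0.0270) and PPP1R10 to CCND3 (0.0143). With 2 groups and 6 libraries, likeness rests mainly on the size of the change with ILL.

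Genes that act on or through these complexes were counted in 8 hand-written lists, without the 10 members. Over all tested genes, 36.9% were lower and 36.2% higher at an adjusted p-value under 0.05, with 11.4% and 12.5% as DEGs. Of 40 S phase genes, 39 were lower and 0 were higher with ILL at an adjusted p-value under 0.05, 38 as DEGs, with a median log2 fold change of -2.47. TYMS, thymidylate synthase, fell by 3.33 and DTL, a ubiquitin ligase subunit of S phase, by 3.21. Of 47 G2 and M phase genes all 47 were lower, 45 as DEGs, with a median of -2.88. CDCA3 and PSRC1, both mitotic genes, had log2 fold changes of -3.66 and -3.63. The 1 S phase gene that did not pass the test was BRIP1, at -0.085, which is named after its value was seen.

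Of 20 genes of RB, the E2F factors and the DREAM and MuvB complexes, 16 were lower, 10 of them DEGs, 2 were higher and 2 did not pass the test, with a median log2 fold change of -0.96. E2F2 fell by 2.92, and FOXM1, the activator of G2 and M genes that works with MuvB, fell by 2.73. RB1 itself had a log2 fold change of -0.047 (SE 0.06, edgeR adjusted p = 0.50) and is named after its value was seen. Of 8 genes that phosphorylate or dephosphorylate CDKs or bind them as CKS subunits, 7 were lower, 5 as DEGs, and 0 were higher, with a median of -2.30. CDC25C and CDC25A, phosphatases that activate CDKs, fell by 3.22 and 2.98. Of 29 genes that encode or regulate the ubiquitin ligases of cyclins, 24 were lower, 6 as DEGs, 2 were higher and 3 did not pass the test. The median was -0.39. Over all tested genes, 36.9% were lower and 11.4% were DEGs lower with ILL. CDC20, which directs the anaphase-promoting complex to cyclins A and B, fell by 3.67, and its partner enzyme UBE2C fell by 3.13.

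CDK inhibitors moved in both directions. CDKN1A, encoding p21, which binds cyclin-CDK2 complexes, was counted 3890, 3461 and 3953 times in controls and 26552, 26848 and 25904 times with ILL. Its log2 fold change was 2.88 (SE 0.06, edgeR adjusted p = 9.2e-23). CDKN1C, encoding p57, rose by 2.46 from 34, 40 and 39 counts to 187, 215 and 196, and CDKN1B, encoding p27, rose by 0.71. CDKN2C, an INK4 inhibitor of CDK4 and CDK6, fell by 2.99 from 898, 831 and 772 counts to 105, 97 and 98, and CDKN2D of the same family fell by 0.57. CDKN2A had at most 2 counts and CDKN2B at most 1 count in any library. Over the 5 tested inhibitors 3 were higher, 2 of them DEGs, and 2 were lower, 1 of them a DEG. Of all tested genes, 36.2% were higher and 36.9% lower, with 12.5% and 11.4% as DEGs. The median over the inhibitors was 0.71, and 0.12 with DESeq2's Wald test, which was run without the filter on low counts.

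In the rest of the cyclin and CDK family, the shares lower and higher were near those over all tested genes (36.9% and 36.2%). Of 22 other cell cycle cyclins and kinases 20 were tested. Of these, 8 were lower, 7 higher and 5 did not pass the test, with 3 DEGs lower and 1 higher. Their median log2 fold change of 0.046 was below 0 in several alternatives, among them library size only and no filter on low counts. CCNF, encoding cyclin F of an SCF ubiquitin ligase, fell by 2.95, and CCNJL rose by 1.43. CDK6, the other partner of the D-type cyclins, was counted 10201, 8820 and 8899 times in controls and 5214, 4834 and 4780 times with ILL. Its log2 fold change was -0.85 (SE 0.05, edgeR adjusted p = 3.0e-13), short of the DEG cutoff. Of 15 cyclins and kinases that act in transcription, 5 were lower and 5 higher, again near the shares over all tested genes, with a median of -0.074. The Mediator kinase gene CDK19 was the single DEG, with a log2 fold change of 1.03 that dropped below the DEG cutoff, to 0.93, without control replicate 2.

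**Figure D4:**
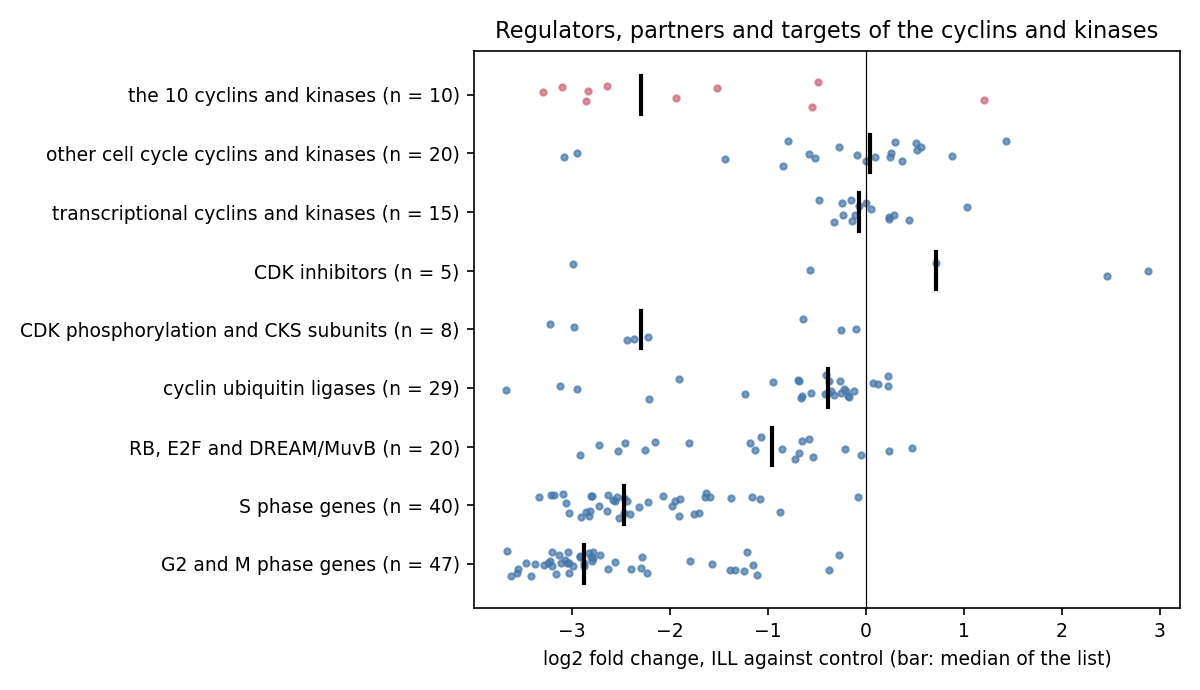
Log2 fold change between ILL and control libraries of each tested gene in the 10 cyclins and kinases (red) and in 8 related lists (blue), with a black bar at the median of each list. The S phase and the G2 and M phase lists centre on -2.47 and -2.88, the transcriptional cyclins and kinases on -0.074, and the CDK inhibitors spread from -2.99 to 2.88.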

How the data were processed

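RNA-seq libraries of HCCC9810 cells, 3 per group, were compared between ILL and vehicle, with groups and replicate numbers from the labels. The authors deposited raw counts per gene symbol and FPKM values, 1 column per library. FPKM equals the count divided by gene length and by the library total, which held for 100% of 88055 nonzero FPKM values within 0.1%. The submitters' processing notes name GRCh38 and DESeq2; the aligner, counting program and annotation are not given in the sources used here. Counts were filtered by filterByExpr, scaled by TMM and tested by edgeR's quasi-likelihood test (edgeR 4.0.16, R 4.3.3) with Benjamini-Hochberg adjustment over 13066 genes, at a biological coefficient of variation of 0.0717. Standard errors were derived, as the size of the log2 fold change before shrinkage over the square root of the test's F statistic. The FPKM shares within families were compared by exact permutation tests (scipy 1.17.1). Alternatives were other scalings and filters, DESeq2 1.42.0, a replicate block, limma 3.58.1 on log2 of FPKM plus 1 or 0.1 (mean FPKM of at least 1, or no filter), and each library left out. The fits were tested on simulated counts.

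The members and gene lists were chosen with earlier results of these data known. Genes named beside the members are, per list, up to 2 non-overlapping DEGs at each end whose mean reached 1 CPM, all CDK inhibitors, CDK1 and CDK6, and genes closest in pattern to each member. Gene positions come from GENCODE release 29 on GRCh38, and promoter sequences from RefSeq on GRCh38.p14. Transcripts alone were analysed here. The study's protein, cell and xenograft experiments, among them flow cytometry of the cell cycle, were not used. Results for a few genes are not reported here.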

Additional observations from a re-analysis of the deposited data

How the results depend on the processing

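In all 15 alternatives 9 members were lower with ILL at an adjusted p-value under 0.05, 7 of them as DEGs, and each member kept its direction and its side of the threshold wherever it was tested. The exception in number is CCND2, whose level did not reach the mean FPKM of 1, so that 0 members were higher, as called or as DEGs, when limma was run with this filter on log2(FPKM + 1) or log2(FPKM + 0.1). Without the filter CCND2 passed limma's test but was not a DEG (0 DEGs higher), at a difference of 0.42 on the log2(FPKM + 1) scale, and its log2 fold change lay between 1.05 and 1.36 without 1 library. Over all genes, limma on log2(FPKM + 1) gave 923 DEGs lower and 668 higher (929 and 680 without the filter), and limma on log2(FPKM + 0.1) gave 909 higher, against 1485 and 1635 with edgeR. In the 8 related lists together, the DEGs higher with ILL numbered 4 with edgeR and 2 with limma on log2(FPKM + 1), with or without the filter, 3 with library size only or limma on log2(FPKM + 0.1), and 3 to 4 without 1 library. CDK19, at 1.03 with edgeR, was below the cutoff at 0.96 with library size only, 0.93 without control replicate 2, and 0.52 to 0.89 with limma.

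The median log2 fold change of the other cell cycle cyclins and kinases, 0.046, was -0.022 with library size only, -0.054 without a filter on low counts, -0.040 with DESeq2's Wald test, -0.014 with limma on log2(FPKM + 1) without a filter, and from -0.049 (without ILL replicate 1) to 0.13 without 1 library. The median of the CDK inhibitors, 0.71, was 0.12 with DESeq2's Wald test. It was 0.0034 with limma on log2(FPKM + 1) without a filter, and 0.61 to 0.78 otherwise. This limma fit also held CDKN2A and CDKN2B, with at most 2 and 1 counts in any library, which edgeR's main fit left out. The part of these genes in the medians was not tested. The median of the transcriptional cyclins and kinases, -0.074, ranged from -0.14 to -0.010. The difference in the CCND2 share of D-type cyclins between ILL and control was 0.642 percentage points by FPKM and 1.04 by counts, which leave out gene length. The difference in the CCND3 share, 0.549 points, was -0.0814 without control replicate 1, and up to 1.05 without another library. Without 1 library the difference ranged from -1.70 to -0.56 points for CCND1 (-0.56 without control replicate 1 and -0.76 without ILL replicate 2) and from -8.40 to -1.11 for CCNE1 (without ILL replicates 3 and 2).

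Same-numbered control and ILL libraries did not deviate together, with correlations of 0.0107, -0.0218 and -0.0179 for replicates 1, 2 and 3. With the replicate number as a block (replicate block), 9 members were lower and 1 higher, 7 and 1 of them DEGs, and the counts over all genes were 4768 lower and 4669 higher, against 4821 and 4726. CCND2 had the fewest counts over the 6 libraries, at 69 to 222 per library, and its standard error of 0.21 was the largest of the 10.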
